A study of Mus musculus with 45 samples.

Results

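A set of 9 genes used as labels of formative and primed pluripotency was followed in mouse embryos and embryonic stem cells from which the transcription factor GABPA had been degraded. The genes were chosen by symbol and are Otx2, Fgf5, Pou3f1, Sox3, Zic2, Lin28a, Lin28b, Grhl2 and Foxd3, which are 9 of the 55385 genes quantified. Of these 9 genes, 5 (Otx2, Lin28a, Lin28b, Grhl2 and Foxd3) reached a mean FPKM (fragments scaled to transcript length and to library size) of 1 in at least 1 stage, and Fgf5, Pou3f1, Sox3 and Zic2 stayed below it in every library.

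Naive pluripotency is the state of the pre-implantation epiblast, and primed pluripotency is that of the epiblast after implantation. The formative state lies between them. When cells leave the naive state, OTX2 together with the POU factor POU3F1 (OCT6) redirects OCT4 to new enhancers, FGF5 is secreted, and ZIC2, SOX3, FOXD3 and GRHL2 take part in switching enhancers over. LIN28A and LIN28B are RNA-binding proteins that block maturation of the let-7 family of miRNAs.

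RNA-seq was performed on late 2-cell embryos, morulae, inner cell masses isolated at embryonic day 4.5 (E4.5 ICM) and mouse embryonic stem cells (mESC) kept in 2i/LIF, here called 2iES cells. All libraries, the controls included, carried Gabpa-dTAG/dTAG, in which both Gabpa alleles encode a fusion to the FKBP degradation tag, so that the small molecule dTAG13 removes the protein. Control groups received the solvent DMSO. Embryos came from females of 7 to 8 weeks and males of 8 to 12 weeks fertilised in vitro, and dTAG13 was given at 1 µM from 6 to 30 hours post fertilization (hpf) for late 2-cell embryos, from the four-cell stage for morulae and from 84 to 100 hpf for the ICM. The 2iES cells were an E14 line from picked single clones and received 0.5 µM dTAG13 for 24 h. There were 3 libraries per arm at the late 2-cell stage and 2 per arm at each other stage, 18 in all. The ICM was freed of trophectoderm by immunosurgery and holds both epiblast and primitive endoderm, and the study timed its collection so as to limit a shift in the ratio of these cell types. At that time, the mid-blastocyst stage, the study reports no difference as yet in epiblast cell number between DMSO and dTAG13. In these libraries fewer cells of a type and less RNA per cell cannot be told apart.

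Summed expected counts per library were 20449966 to 23718870 for late 2-cell embryos, 9457933 to 12382705 for morulae, 18266057 to 20818291 for the ICM and 20146785 to 27660132 for 2iES cells, and their number sets the counting precision of each value. dTAG13 acts on the protein, so Gabpa mRNA does not check the degradation. Gabpa mRNA was nevertheless higher with dTAG13 in every library at every stage, at 29.9 to 30.4 FPKM against 11.0 to 12.0 FPKM in the ICM for example. Some marker lists set the labelled stages apart and others did not. The 9 primitive endoderm markers together reached 578 to 587 TPM (a length-scaled share of transcripts) in the control ICM and 3.39 to 5.15 TPM in control 2iES cells. Naive epiblast markers summed to 8603 to 10307 TPM in late 2-cell controls, 2208 to 2238 TPM in the control ICM and 587 to 608 TPM in control 2iES cells. Trophectoderm markers summed to 111 to 143 TPM in control 2iES cells and 83.6 to 87.6 TPM in the control ICM. Replicates within the ICM groups differed by little more than counting error, with a biological coefficient of variation of 0.0237 against 0.159 to 0.284 at the other stages. The study calls its late 2-cell, ICM and 2iES replicates biological replicates. Nothing in the labels says that replicates came from separate litters or cultures, so p-values measure the spread between these libraries.

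The control libraries show first where each gene was transcribed. Otx2, a homeodomain factor of the formative transition, was highest in morulae. Its level in the DMSO libraries was 0.16, 0.10 and 0.16 FPKM at the late 2-cell stage, 7.19 and 3.64 FPKM in morulae, 2.00 and 1.35 FPKM in the ICM and 0.67 and 0.72 FPKM in 2iES cells. No stage overlapped another, and the 2 morula libraries lay apart by more than the levels of the later stages.

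Foxd3, a forkhead factor, was the only one of the 9 genes with a control mean above 1 FPKM in the ICM or 2iES cells and almost no reads before the blastocyst. No read fell on it in the late 2-cell controls, and the morula controls held 0 and 2 expected counts. The ICM controls had 2.77 and 2.68 FPKM and the 2iES controls 0.99 and 1.02 FPKM.

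The LIN28 paralogues followed different courses. Lin28a stood at 2.19, 1.84 and 2.46 FPKM in the late 2-cell controls, 8.71 and 6.03 FPKM in morulae, 11.4 and 11.3 FPKM in the ICM and 3.29 and 4.41 FPKM in 2iES cells. Lin28b stood at 2.02, 2.42 and 2.59 FPKM in the late 2-cell controls, 3.61 and 2.82 FPKM in morulae, 0.34 and 0.35 FPKM in the ICM and 1.19 and 1.48 FPKM in 2iES cells. The ICM was thus the highest stage for Lin28a and the lowest for Lin28b.

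Grhl2, a grainyhead factor of epithelial cells, was highest at the earliest stage and lower at each later one. Its control libraries had 14.6, 17.2 and 14.1 FPKM at the late 2-cell stage, 8.87 and 8.15 FPKM in morulae, 3.53 and 3.78 FPKM in the ICM and 0.68 and 0.46 FPKM in 2iES cells.

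The other 4 genes were low, and Fgf5, Sox3 and Zic2 were near the detection limit. Pou3f1 had 22 to 56 expected counts in the late 2-cell controls. Pou3f1 reached 0.70, 0.64 and 0.26 FPKM in the late 2-cell controls and at most 0.26 FPKM in any control library of a later stage. Fgf5 had 4 and 2 expected counts in the ICM controls, a single count in 1 late 2-cell control and none in the morula or 2iES controls. Sox3 had at most 4 expected counts in any of the 18 libraries and Zic2 at most 5. Such counts leave little room to measure a fall of Fgf5, Sox3 or Zic2.

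**Figure D1:**
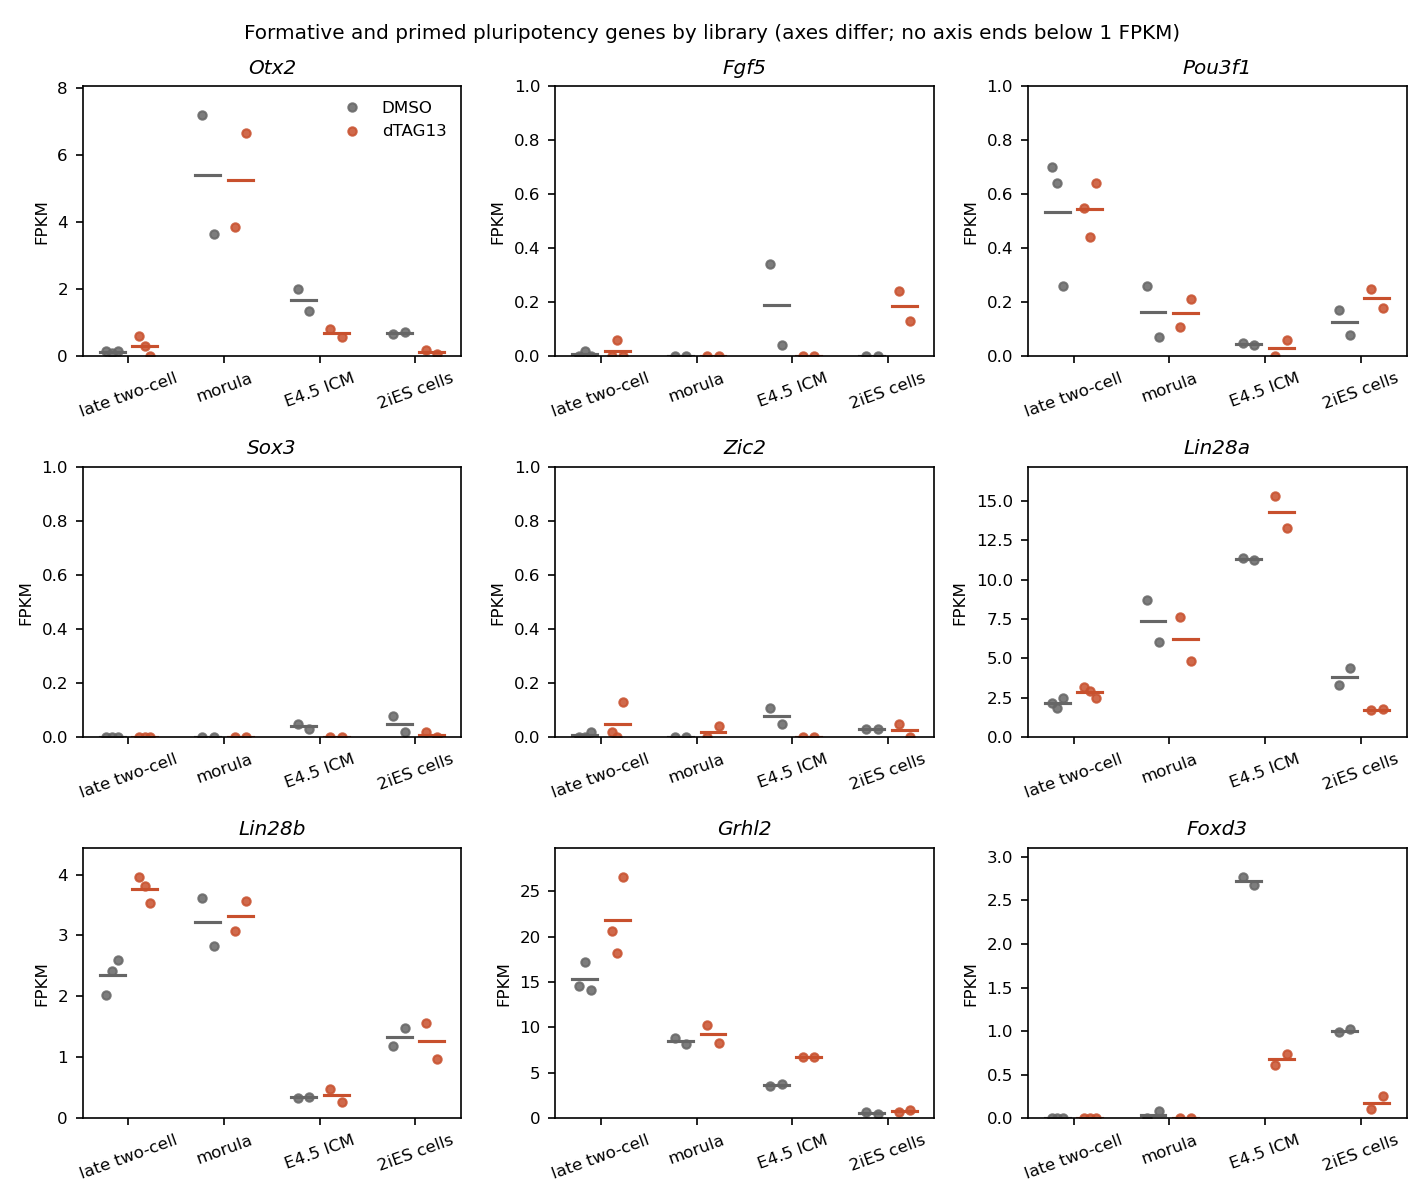
FPKM (y axis, a separate linear scale per gene) of the 9 genes in each of the 18 libraries by stage (x axis), with DMSO libraries in grey and dTAG13 libraries in orange; each point is a library and each short line a group mean. Otx2 peaks in morulae, Foxd3 appears in the ICM at 2.77 and 2.68 FPKM and is lower with dTAG13, and Fgf5, Pou3f1, Sox3 and Zic2 never reach 1 FPKM.

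Differences between control stages were tested with edgeR's quasi-likelihood test on the counts, with p-values adjusted by Benjamini-Hochberg over all genes. A gene was called when its adjusted p was under 0.05, its fold change at least 2 and its mean FPKM at least 1 in either group. From the late 2-cell stage to morula, 2 of the 5 genes tested were called, where 54.2% of all genes tested were. Otx2 rose 39.0-fold (log2 fold change 5.28, SE 0.48, adjusted p = 4.22e-06) and Lin28a rose 4.21-fold (2.07, SE 0.29, adjusted p = 0.000111). Grhl2 fell 1.73-fold (adjusted p = 0.00693), short of the fold cut-off, where 70.2% of all genes passed the adjusted p alone. Against a median log2 change of -0.37 over all genes in this comparison, Lin28b had 0.18 (adjusted p = 0.574) and Pou3f1 -1.64 (adjusted p = 0.0736).

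From morula to ICM, 4 of 5 genes tested were called, against 38.2% of all genes. Otx2 fell 3.77-fold (adjusted p = 0.00694), Lin28b fell 7.41-fold (adjusted p = 0.000336) and Grhl2 fell 2.55-fold (adjusted p = 0.000875). Foxd3 rose (adjusted p = 0.000957) from 2 expected counts over both morula controls to 235 over both ICM controls, a ratio of depth-scaled counts of 60.1 with an exact 95% interval of 16.5 to 499 for counting error alone. Lin28a had a log2 difference of 0.31 (SE 0.19, adjusted p = 0.208), although its FPKM values did not overlap.

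Between control ICM and control 2iES cells, the sample type, the culture and the sample source all differ and cannot be told apart. All 5 genes tested were called, against 33.5% of all genes. Otx2 (2.02-fold, adjusted p = 0.0266), Lin28a (2.19-fold, adjusted p = 0.00267), Grhl2 (6.51-fold, adjusted p = 0.000297) and Foxd3 (2.07-fold, adjusted p = 0.00532) were lower in 2iES cells, and Lin28b was higher there (3.65-fold, adjusted p = 0.00528). Otx2 and Foxd3 lie close to the fold cut-off and their calls depended on the scaling. Both were below it with upper-quartile scaling and not past the p threshold in a fit of all 18 libraries. With 1 library left out, the log2 difference of Lin28a ran from -1.33 to -0.93, which crosses the fold cut-off. DESeq2 called 4 of the 5 genes. Without DMSO replicate 1 of the ICM, Otx2 had an adjusted p of 0.208.

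The promoters of the 3 genes that were called under dTAG13, Foxd3, Otx2 and Lin28a, are shown because GABPA is an ETS factor, and ETS factors bind around a GGAA core. Each run is the RefSeq window from 250 bases before to 50 bases after an annotated start (build GRCm38.p6), on the gene's strand, with GGAA and its reverse complement TTCC in capitals.
Foxd3, chr4:99656049-99656348, plus strand: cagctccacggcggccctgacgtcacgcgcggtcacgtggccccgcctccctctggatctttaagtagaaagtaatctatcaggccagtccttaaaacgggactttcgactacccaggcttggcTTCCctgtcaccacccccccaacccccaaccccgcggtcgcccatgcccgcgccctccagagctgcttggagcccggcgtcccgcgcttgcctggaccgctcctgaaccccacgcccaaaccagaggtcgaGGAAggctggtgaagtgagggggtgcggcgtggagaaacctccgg
Otx2, the most upstream of 4 windows, chr14:48667595-48667894, minus strand: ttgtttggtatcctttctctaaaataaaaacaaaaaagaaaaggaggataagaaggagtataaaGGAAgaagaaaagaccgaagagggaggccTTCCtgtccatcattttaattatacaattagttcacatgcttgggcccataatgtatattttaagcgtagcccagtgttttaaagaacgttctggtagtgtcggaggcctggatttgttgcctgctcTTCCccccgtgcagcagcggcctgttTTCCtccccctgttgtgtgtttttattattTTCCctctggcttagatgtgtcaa
Lin28a, chr4:134018767-134019066, minus strand: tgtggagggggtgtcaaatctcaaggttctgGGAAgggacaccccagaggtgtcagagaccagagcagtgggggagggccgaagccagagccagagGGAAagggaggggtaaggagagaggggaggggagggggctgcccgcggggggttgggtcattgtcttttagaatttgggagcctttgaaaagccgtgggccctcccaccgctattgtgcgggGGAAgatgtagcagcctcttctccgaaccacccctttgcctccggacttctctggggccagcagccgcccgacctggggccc

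The core occurs 2 times in the Foxd3 window, 5 times in the Otx2 window and 3 times in the Lin28a window. Such a short word says little, since 96.0% of all 32851 RefSeq promoter windows hold it on either strand. The longer ETS motif CCGGAAG, which contains the core, was searched on both strands and is in 8.86% of all windows. It was in 0 of the 8 windows of the 5 genes with an entry (Foxd3, Lin28a, Lin28b, Fgf5 and 4 starts of Otx2). These are letters in a 300-base window and say nothing of where GABPA binds. The Foxd3 window is 65.7% G and C and the Lin28a window 63.3%, while this Otx2 window is 41.7%, against a median of 52.7% over all windows.

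At the late 2-cell stage, dTAG13 called none of the genes. Of the 9 genes, 4 (Pou3f1, Lin28a, Lin28b and Grhl2) had enough counts to be tested by edgeR and 0 were called, where 4.11% of all genes tested were. At an unadjusted p under 0.05 the count was 1, and DESeq2 called 0. Lin28b was the gene with the unadjusted p under 0.05. Its dTAG13 libraries had 3.96, 3.81 and 3.54 FPKM against 2.02, 2.42 and 2.59 FPKM in the controls, without overlap, and its log2 difference was 0.51 (SE 0.20, adjusted p = 0.172).

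Grhl2 differed by unit at this stage. By FPKM its dTAG13 libraries (20.6, 18.2 and 26.6) lay above the controls (14.6, 17.2 and 14.1). By counts the log2 difference was 0.01 (SE 0.16, adjusted p = 0.984), and the mean effective length that divides the counts was 2181 bases with dTAG13 against 2862 bases without. Lin28a had 3.16, 2.93 and 2.52 FPKM with dTAG13, all above the controls, and a log2 difference by counts of 0.27 (SE 0.29, adjusted p = 0.662). All dTAG13 libraries lay above all controls for 9.44% of all genes with any value. Pou3f1 had 0.55, 0.44 and 0.64 FPKM with dTAG13 and a log2 difference of -0.05 (SE 0.45, adjusted p = 0.969). Otx2, too low to test, had 0.61, 0.32 and 0 FPKM with dTAG13, so that its libraries lay on both sides of the controls.

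In morulae, 0 of the 4 genes tested (Otx2, Lin28a, Lin28b and Grhl2) were called by edgeR, against 0.351% of all genes. The count was also 0 at an unadjusted p under 0.05 and with DESeq2. Otx2 had 3.85 and 6.64 FPKM with dTAG13, which spans the control values of 7.19 and 3.64 FPKM, and its log2 difference was 0.05 (SE 0.37, adjusted p = 0.968). Lin28a had 7.62 and 4.84 FPKM with dTAG13 (log2 difference -0.33, SE 0.26, adjusted p = 0.602). Lin28b had 3.07 and 3.56 FPKM (0.32, SE 0.28, adjusted p = 0.649) and Grhl2 had 10.2 and 8.34 FPKM (0.22, SE 0.23, adjusted p = 0.718). The libraries of all 9 genes overlapped between arms at this stage, which has the lowest depth of the 4. Over all genes with any value, both dTAG13 libraries lay below both controls for 19.7% and above them for 13.3%. Fgf5 and Sox3 had 0 counts in every morula library and so could not lie apart, and Foxd3 and Zic2 had at most 2 and 1 expected counts.

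In the E4.5 ICM, dTAG13 lowered Foxd3 and Otx2. Foxd3 had 0.61 and 0.74 FPKM with dTAG13 against 2.77 and 2.68 FPKM without, which is 24 and 30 expected counts against 124 and 111. It fell 4.20-fold (log2 fold change -2.07, SE 0.23, adjusted p = 3.62e-10). Otx2 had 0.81 and 0.56 FPKM against 2.00 and 1.35 FPKM and fell 2.73-fold (-1.45, SE 0.28, adjusted p = 1.82e-05). The call of Otx2 was lost in a fit of all 18 libraries. Neither gene's libraries overlapped between arms, where 31.9% of all genes with any value had both dTAG13 libraries below both controls. These were the 2 genes called of the 5 tested, where 25.3% of all genes tested were called and 13.2% were called as lower.

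The other 3 genes tested in the ICM passed the p threshold with changes under 2-fold, in a comparison where 76.9% of all genes passed it. Grhl2 rose 1.65-fold (log2 fold change 0.72, SE 0.11, adjusted p = 1.82e-07), from 3.53 and 3.78 FPKM to 6.77 and 6.73 FPKM. Lin28a rose 1.16-fold (0.22, SE 0.06, adjusted p = 0.00253), from 11.4 and 11.3 FPKM to 15.3 and 13.3 FPKM. With DESeq2, Lin28a had an adjusted p of 0.0679, and leaving out DMSO replicate 2 gave 0.0591.

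Lin28b fell by counts but not per length. Its expected counts were 22 and 13 with dTAG13 against 35 and 35 without, a log2 difference of -0.95 (SE 0.35, adjusted p = 0.0141). Its FPKM values were 0.48 and 0.27 against 0.34 and 0.35 and overlapped. The mean effective length assigned to Lin28b was 2510 bases with dTAG13 and 5098 bases without, so the files place the remaining reads on shorter Lin28b transcripts. With DESeq2 the adjusted p was 0.134, without DMSO replicate 2 it was 0.0691 and without dTAG13 replicate 2 it was 0.178. On the log2(TPM + 0.1) scale the difference was 0.07 with the opposite sign (limma, adjusted p = 0.841).

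Of the 4 genes not tested in the ICM, Fgf5, Sox3 and Zic2 had reads in both control libraries (4 and 2, 2 and 1, and 5 and 2 expected counts) and 0 in both dTAG13 libraries. With no filter on low counts, edgeR gave adjusted p-values of 0.0781 for Fgf5, 0.272 for Sox3 and 0.0499 for Zic2. Over all genes with any value, 31.9% had both dTAG13 libraries below both controls. Pou3f1 had 4 and 3 expected counts in the controls and 0 and 4 with dTAG13.

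**Figure D2:**
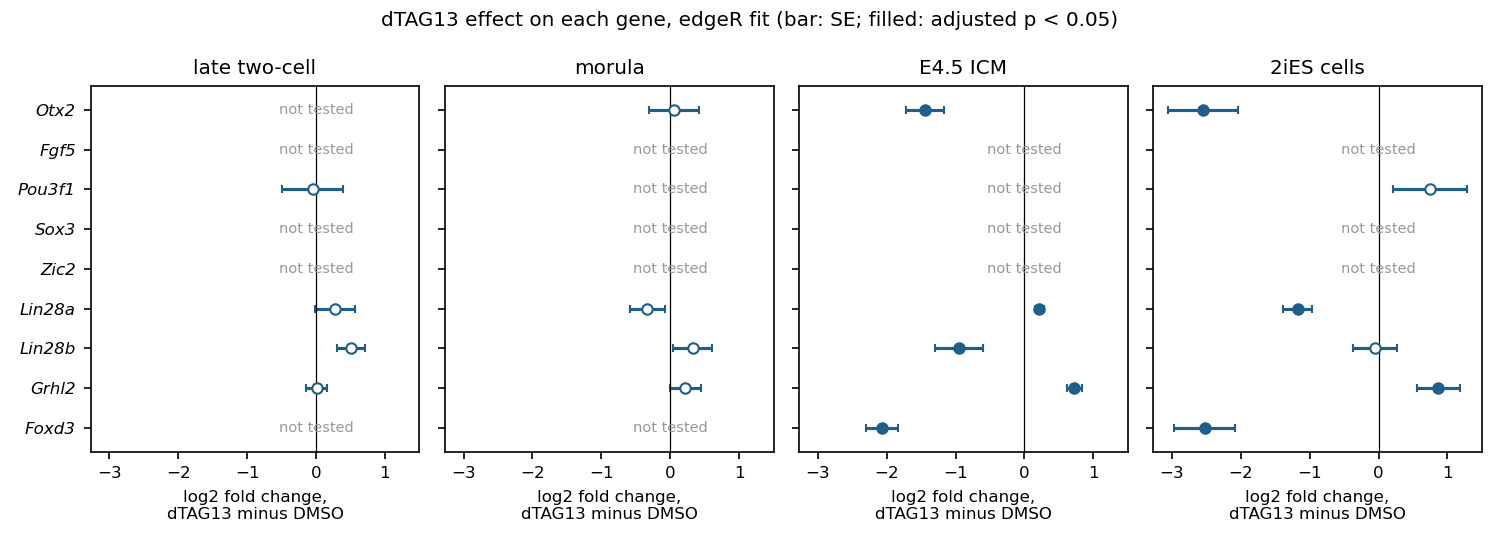
Log2 fold change of dTAG13 against DMSO from the edgeR fits (x axis) for each of the 9 genes (y axis) at the 4 stages; bars are standard errors and filled points have an adjusted p under 0.05. No point is filled at the late 2-cell or morula stage, Foxd3 and Otx2 lie at -2.07 and -1.45 in the ICM, and genes with too few counts are marked as not tested.

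In 2iES cells, dTAG13 lowered Foxd3, Otx2 and Lin28a. Foxd3 had 0.11 and 0.25 FPKM with dTAG13 against 0.99 and 1.02 FPKM without, or 6 and 11 expected counts against 59 and 60. It fell 5.75-fold (log2 fold change -2.52, SE 0.45, adjusted p = 0.00349). Lin28a had 1.72 and 1.77 FPKM against 3.29 and 4.41 FPKM and fell 2.26-fold (-1.18, SE 0.21, adjusted p = 0.00336). These 2 genes were called of 6 tested, where 28% of all genes tested were called and 15.6% were called as lower.

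Otx2 had 0.20 and 0.08 FPKM against 0.67 and 0.72 FPKM, which is 7 and 3 expected counts against 31 and 39. It fell 5.86-fold (log2 fold change -2.55, SE 0.51, adjusted p = 0.00561) but stayed outside the call because no group mean reached 1 FPKM. By adjusted p alone, 4 of the 6 genes passed, against 54.6% of all genes. The call of Foxd3 rests on the same FPKM cut-off, since its control libraries lie on either side of 1 FPKM. Without DMSO replicate 2, 0 genes were called, as Foxd3 then missed the FPKM cut-off and Lin28a the fold (log2 fold change -0.99). The adjusted p stayed under 0.05 for Foxd3, Otx2 and Lin28a with any 1 library left out.

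Grhl2 had 0.74 and 0.91 FPKM with dTAG13 against 0.68 and 0.46 FPKM, and its rise by counts was at the threshold (1.83-fold, adjusted p = 0.0495). DESeq2 gave it an adjusted p of 0.179, and edgeR gave 0.111 without DMSO replicate 2, 0.252 without dTAG13 replicate 1 and 0.143 without dTAG13 replicate 2. Lin28b had 1.57 and 0.97 FPKM against 1.19 and 1.48 FPKM, a log2 difference of -0.06 (SE 0.32, adjusted p = 0.894). Pou3f1 had 0.25 and 0.18 FPKM against 0.17 and 0.08 FPKM, a log2 difference of 0.75 (SE 0.54, adjusted p = 0.275).

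Fgf5 appeared only with dTAG13 in 2iES cells. Its libraries held 14 and 6 expected counts with dTAG13 (0.24 and 0.13 FPKM) and 0 and 0 without. Against a floor of 3 counts per control library, this is at least 3.93-fold higher. The gene missed the count filter of 10 in 2 libraries, and without that filter edgeR gave an adjusted p of 0.000518. Both dTAG13 libraries lay above both controls for 31.6% of all genes with any value. Sox3 (4 and 1 expected counts without dTAG13, 1 and 0 with it) and Zic2 (2 and 2 without, 3 and 0 with) stayed at a handful of reads.

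**Figure D3:**
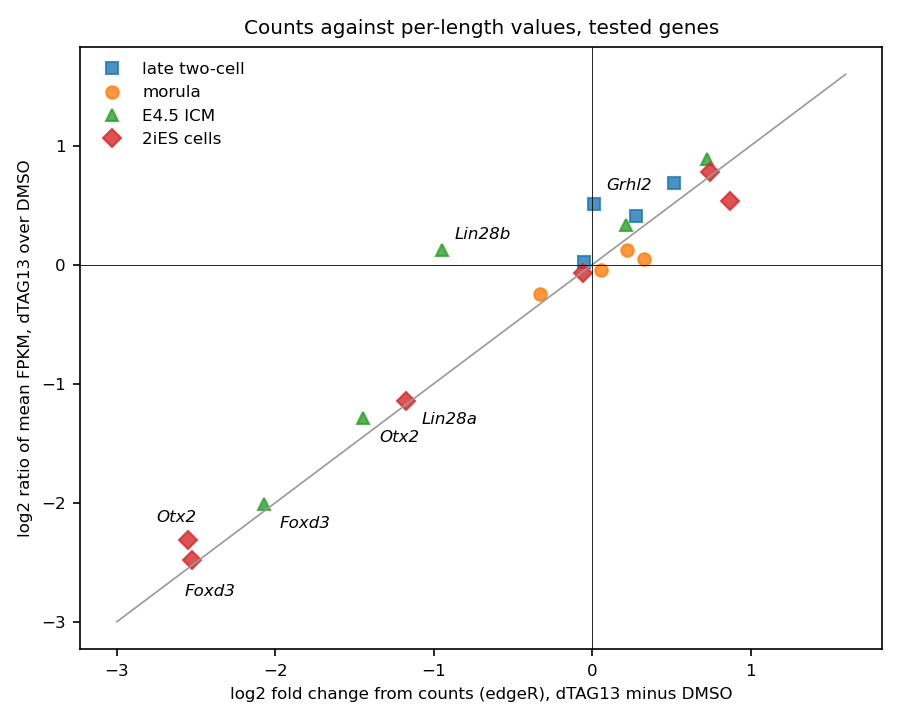
Log2 fold change from counts (x axis) against the log2 ratio of mean FPKM (y axis), dTAG13 against DMSO, for every gene and stage with a test; the grey line marks equal values. Foxd3, Otx2 and Lin28a lie near the line, while Lin28b in the ICM (-0.95 by counts, 0.12 by FPKM) and Grhl2 at the late 2-cell stage (0.01 and 0.51) lie off it.

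Whether the dTAG13 effect itself differed between stages was tested as an interaction. These comparisons share libraries with those above and with each other. For morula minus late 2-cell, 0 of 5 genes passed with edgeR, against 3.16% of all genes, and the count was also 0 at an unadjusted p under 0.05 and with DESeq2. For ICM minus morula, 1 of 5 passed, against 29.1% of all genes. That gene was Lin28b (difference -1.25, SE 0.41, adjusted p = 0.0434), which is the gene whose counts and per-length values disagree in the ICM. The difference for Otx2 was -1.47 (SE 0.58, adjusted p = 0.0802), so a larger effect in the ICM than in morulae was not shown for it. Foxd3 had too few morula reads for its difference to be read.

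For 2iES cells minus ICM, 1 of 6 genes passed, against 41.9% of all genes. Lin28a rose slightly in the ICM and fell in 2iES cells, and its effects differed by -1.38 (SE 0.21, adjusted p = 0.000878). The differences for Foxd3 (-0.44, SE 0.46, adjusted p = 0.474) and Otx2 (-1.08, SE 0.57, adjusted p = 0.158) did not pass. The dose, length of treatment and cell source differ between the ICM and 2iES cells and cannot be told apart from the stage.

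Other genes of the formative and primed states were taken from a list of 27, among them DNA methyltransferases, NODAL pathway members and ETS variant genes. The counts of this and the next lists are to be read against the share of all genes called, 25.3% in the ICM (13.2% as lower) and 28% in 2iES cells (15.6% as lower). At the late 2-cell stage 0 of 19 tested and in morulae 0 of 12 tested passed edgeR's adjusted p, and 2 and 0 of them did so at an unadjusted p under 0.05. In the ICM, 21 were tested, 9 were called lower and 1 higher, and their median log2 change was -0.88 against 0.01 over all genes. Lefty2, an inhibitor of NODAL signalling, fell from 27.2 ± 0.474 FPKM (SD, n = 2) to 1.64 FPKM in both dTAG13 libraries ( log2 fold change -4.19, adjusted p = 7.92e-31). Zic5 (-3.14), Etv5 (-2.36) and Etv4 (-1.94) fell as well. In 2iES cells 24 were tested, 6 were called lower and 1 higher, a share close to that of all genes, and the median was -0.22 against 0.03 over all genes. The 4 largest called changes were those of Lefty2 (-2.33), Zic5 (-2.02), Utf1 (-1.88) and Etv4 (-1.48).

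Of 17 paralogues of the 9 genes, 7 were tested in the ICM, where 3 were called lower and 1 higher. Those were Zic5, Sox2 (-2.29) and Fgf4 (-2.09), both of them naive epiblast genes too, and Grhl1 (1.18), a relative of Grhl2. In 2iES cells 10 were tested, with Zic5 called lower and Grhl1 (1.79) called higher, a smaller share than that of all genes. Grhl1 and Grhl2 thus both rose in both settings, each by the adjusted p, with Grhl2 at the threshold in 2iES cells.

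Around LIN28, 17 genes of let-7 processing and let-7 targets, Lin28a and Lin28b among them, were all tested at each stage. The calls were no more frequent than among all genes in the ICM or 2iES cells. In the ICM 1 was called, Hmga1, a chromatin protein, which fell from 29.5 to 4.43 FPKM (log2 fold change -2.94, adjusted p = 1.17e-23). In 2iES cells 3 were called lower, namely Hmga1 (-1.84), Igf2bp3 (-1.58) and Lin28a itself. Tut4, a terminal uridylyltransferase that acts with LIN28 on let-7 precursors, was called higher (1.10, adjusted p = 0.000992). At the late 2-cell stage Tut7, its relative, was called lower (-1.12, adjusted p = 0.000578).

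Among 12 epithelial genes linked to GRHL2, all were tested in the ICM. There 3 were called higher, the claudins Cldn4 (1.26), Cldn3 (1.25) and Cldn6 (1.24), and 2 lower, with 9 past the adjusted p as higher and 3 as lower. Rab25, a GTPase of epithelial trafficking, was one of the lower genes and was listed at 0 FPKM in both dTAG13 libraries against a mean of 1.98 FPKM. In 2iES cells 11 were tested, 0 were called higher and 3 lower, which were Cldn7 (-1.34), Cldn3 (-1.25) and Epcam (-1.08). By adjusted p, 3 were higher and 3 lower there, the median was 0.10 and the share called was close to that of all genes.

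Markers of other cell types moved in the ICM together with these genes. The 9 trophectoderm markers summed to 796 to 798 TPM with dTAG13 against 83.6 to 87.6 TPM without, with 8 past the adjusted p as higher and Krt18 at 525 against 25.8 FPKM. None of them was at 0 in either arm. Hba-a2, a haemoglobin gene among 5 blood markers, had 9.36 FPKM with dTAG13 and 0.815 FPKM without. The 9 primitive endoderm markers summed to 1098 to 1108 TPM against 578 to 587 TPM. Of these, 6 passed the adjusted p as higher and 2 as lower, and only Dab2 was called (490 against 150 FPKM). Of 14 naive epiblast markers 6 were called lower and 1, Dppa3, was called higher. Their sum was nevertheless higher, at 5898 to 5915 TPM against 2208 to 2238 TPM, with Dppa3 at 5813 against 1532 FPKM. The part of these marker changes in the values of Grhl2, Foxd3 and Otx2 in the ICM was not tested. In 2iES cells the trophectoderm markers summed to 131 to 137 TPM with dTAG13 and 111 to 143 TPM without, and primitive endoderm markers were at 4.54 to 4.95 TPM and 3.39 to 5.15 TPM. Single markers did change in 2iES cells. The naive markers Pou5f1 (-1.75), Prdm14 (-1.62), Nr0b1 (-1.29) and Nanog (-1.12) were called lower, a share of the 14 close to the 28% of all genes called. By adjusted p, 5 naive markers were lower and 3 higher, and the list median was 0.02 against 0.03 over all genes. The trophectoderm markers Tfap2c (1.47) and Eomes (-1.21) were called in opposite directions. Col4a1 of the primitive endoderm list was called higher (1.45 against 0.37 FPKM), and Hba-a2 had 7.75 FPKM with dTAG13 and 0.525 FPKM without. The part of these marker changes in the values of Foxd3, Otx2 and Lin28a in 2iES cells was not tested.

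**Figure D4:**
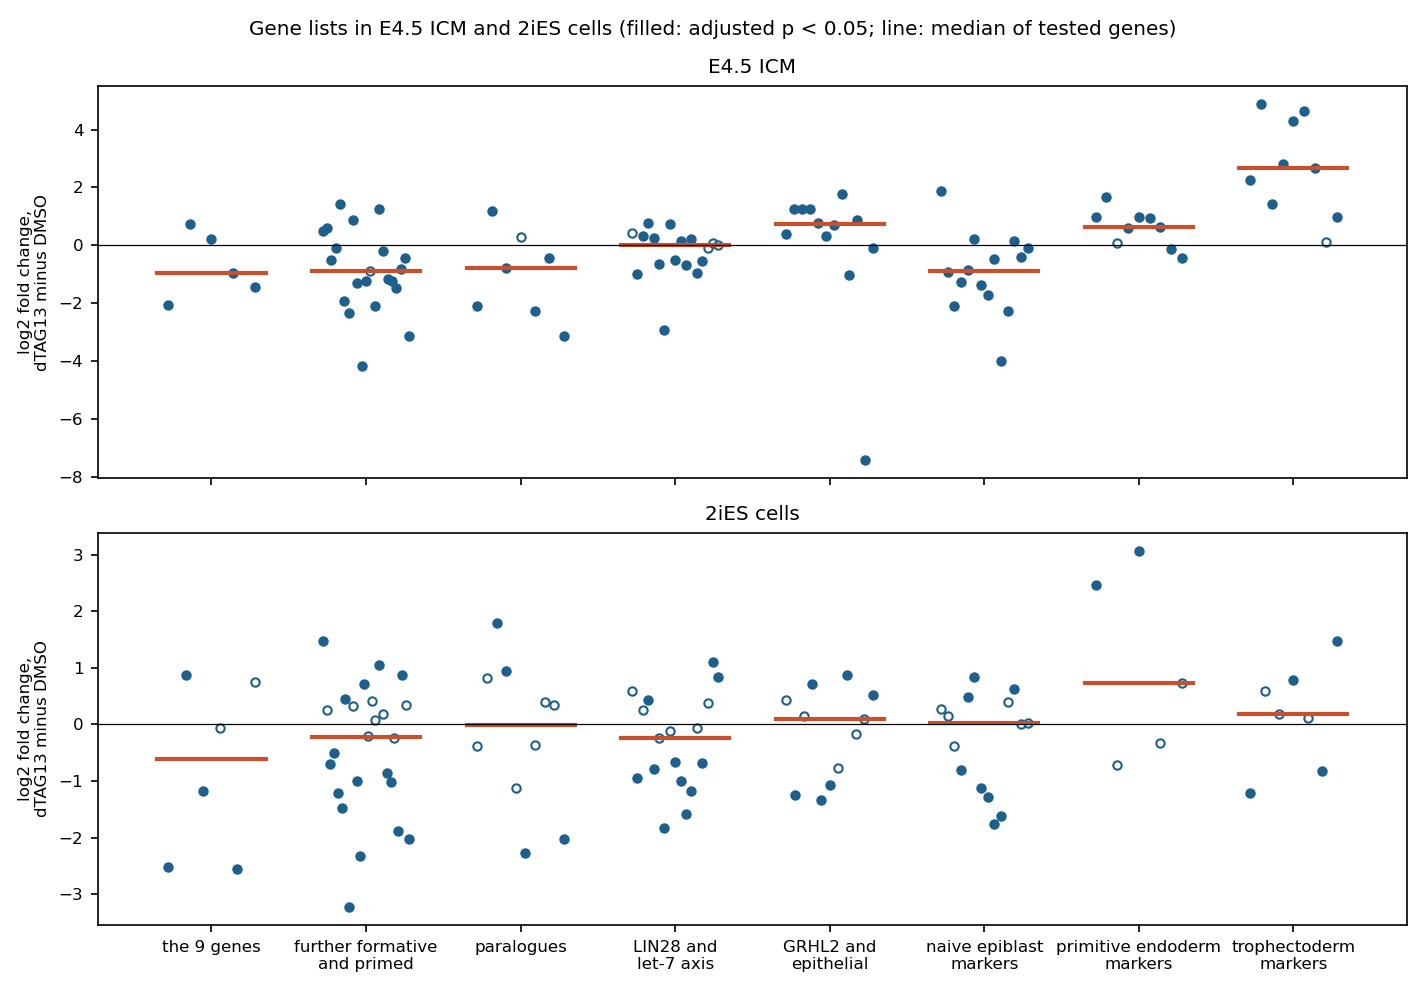
Log2 fold change of dTAG13 against DMSO (y axis) for every tested gene of 8 lists (x axis) in the E4.5 ICM (top) and 2iES cells (bottom); filled points have an adjusted p under 0.05 and orange lines are list medians of the tested genes. In the ICM the median is -0.88 for the further formative and primed genes and 2.68 for trophectoderm markers, and in 2iES cells these medians are -0.22 and 0.18; the lowest point of the epithelial list in the ICM is Rab25, whose fitted value depends on the handling of 0 counts.

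As a description, the profile of each gene over the 8 groups was set beside those of 19449 other genes with a mean of 1 FPKM in some group, by Pearson's r of log2(mean FPKM + 1). The nearest to Otx2 were Gm26585 (r = 0.98) and Tat (r = 0.98), which also peak in morulae. The nearest to Foxd3 were Kdm5c (r = 0.98), a histone demethylase gene, and Alpl (r = 0.98), the gene of tissue-nonspecific alkaline phosphatase, which had 38.5 FPKM in the control ICM and 14.8 FPKM with dTAG13. Kdf1 (r = 0.99) and Ptbp1 (r = 0.99) lay nearest to Lin28a, Gm16378 (r = 0.98) and Itgae (r = 0.97) to Lin28b, and Rab20 (r = 0.995) and Oas1e (r = 0.995) to Grhl2. With 8 groups of shared libraries and so many genes compared, high values of r are easily found.

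All 9 genes are annotated as protein coding in GRCm38 (GENCODE vM21). Foxd3 (chr4:99656299-99658622), Pou3f1 (chr4:124656807-124660655) and Sox3 (chrX:60891366-60893430) have 1 exon. Otx2 lies at chr14:48657677-48673819 with 11 annotated transcripts, Lin28b at chr10:45376620-45486395 with 3, Grhl2 at chr15:37233036-37363569 with 6 and Lin28a at chr4:134003330-134018841 with 4. The kit does not mark strand, so reads in exons shared with antisense genes cannot be told apart. Such overlap covers 8.57% of the exonic bases of Pou3f1 (Gm2164), 5.86% of Lin28a (Gm13061) and 1.96% of Grhl2 (Gm16136). Between 0.316% (Zic2) and 8.17% (Pou3f1) of the 31-base words in these genes' transcripts also occur in another gene's transcripts.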

How the data were processed

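RNA was amplified with SMART-Seq v4 and libraries were made with Nextera XT. The authors trimmed reads with Trimmomatic (v0.39), mapped them to GRCm38 with STAR and quantified genes with RSEM. They deposited, for each library, expected counts, TPM, FPKM and effective lengths. The files' IDs were matched to GENCODE vM21, with 55144 of 55385 matched. The other deposited files of the series were not used here.

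Expected counts were rounded to whole numbers. Genes with at least 10 counts in as many libraries as the smaller group has were fitted per comparison with edgeR's quasi-likelihood test (v4.0.16, R 4.3.3, TMM scaling) and p-values were adjusted by Benjamini-Hochberg. The fold cut-off of 2, adjusted p of 0.05 and mean FPKM of 1 follow the study's methods. DESeq2 (v1.42.0) and limma (v3.58.1) on log2(TPM + 0.1) or log2(TPM + 1) served as alternatives, and fold changes on these 2 scales understate changes of low genes. The fits were checked on simulated counts that had the same spread at every stage and changes in better expressed genes only. That check does not cover low genes or the differences in spread between stages. Where a control group had 0 counts, a fold was computed against 3 counts per library. The 9 genes, the gene lists and the tests were chosen with earlier results of these data known. Text names all 9 genes and, per list and comparison, up to 4 called genes with the largest change.

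Replicates of each group differed by more than counting error. Same-numbered DMSO and dTAG13 libraries did not deviate together, so the numbers were not used as pairs. Intervals and floors cover counting error only.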

Additional observations from a re-analysis of the deposited data

Results flagged for a closer look

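The effect of dTAG13 on Lin28a differed between 2iES cells and the E4.5 ICM by -1.38 on the log2 scale (SE 0.21, edgeR interaction, adjusted p = 0.000878). It was -1.18 in 2iES cells, where both dTAG13 libraries were below both controls, and 0.22 in the ICM, where both were above. Libraries lay apart in these directions for 22.6% of all genes with any value in 2iES cells and for 34.7% in the ICM. Over the sets with 1 library left out the difference ran from -1.62 to -1.19 and its adjusted p stayed at or below 0.00715.

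The effect on Lin28b differed between the ICM and morulae by -1.25 (SE 0.41, edgeR interaction, adjusted p = 0.0434). It was -0.95 in the ICM and 0.32 in morulae by counts, but the FPKM values of Lin28b overlapped between arms at both stages. The adjusted p was above 0.05 without DMSO replicate 1 (0.0583) or dTAG13 replicate 2 (0.0720) of morulae, and without DMSO replicate 1 (0.113), DMSO replicate 2 (0.138) or dTAG13 replicate 2 (0.206) of the ICM. Groups of 2 or 3 libraries were too small to look for single libraries that stand apart from their group.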

How the results depend on the processing

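Over the single-gene values of the 10 comparisons, 653 of 705 values under an alternative stayed on their side of the threshold. Of these, 612 kept their sign and 41, none past the threshold in either fit, changed it. A further 32 lost significance, 15 gained it and 5 changed sign with significance in 1 of the fits. The causes were not tested. DESeq2 gave no adjusted p for Pou3f1 in the difference between morula and late 2-cell effects. Genes called in the ICM (2 as reported) became 1, Foxd3, in a fit of all 18 libraries, where Otx2 had an adjusted p of 0.106, and 1 with limma on log2(TPM + 1), and 5 by adjusted p alone. In 2iES cells the 2 became 1 with upper-quartile scaling (Foxd3) or when the FPKM cut-off was set on the mean of both arms together (Lin28a), 0 with limma on log2(TPM + 1) and 4 by adjusted p alone, and 0 to 2 with 1 library left out, 0 being without DMSO replicate 2. The 2 of control morula against late 2-cell became 3 with limma on either scale. The 4 of control ICM against morula became 3 with limma on log2(TPM + 0.1) and 2 with limma on log2(TPM + 1). With DESeq2, the 5 of control 2iES cells against ICM became 4. The 5 of control 2iES cells against ICM became 3 with upper-quartile scaling, 3 in the fit of all 18 libraries, 2 with limma on log2(TPM + 1) and 3 to 5 with 1 library left out, 3 being without DMSO replicate 1 of 2iES cells. The 1 gene of ICM minus morula became 0 with upper-quartile scaling, DESeq2, all 18 libraries or limma on log2(TPM + 0.1), 2 with no filter, and 0 to 2 with 1 library left out. The 1 of 2iES cells minus ICM became 2 with no filter, 3 with limma on log2(TPM + 1) and 1 to 3 with 1 library left out. With significance in 1 of the fits, signs turned for Lin28b in the ICM (0.067 and 0.029 by limma on log2(TPM + 0.1) and log2(TPM + 1)) and, all on log2(TPM + 1), for Foxd3 in ICM minus morula (-1.08), Grhl2 in 2iES cells minus ICM (-0.56) and Foxd3 there (0.44).

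Same-numbered libraries correlated in their deviations by 0.01 to 0.05 in embryos and by -0.13 in 2iES cells. The numbers were not taken as pairs. A replicate block gave Grhl2 in 2iES cells an adjusted p of 0.0628 and left the calls at 2 in the ICM and 2 in 2iES cells and at 0 at the other stages, and pairing the 2iES numbers crosswise, chosen after seeing the data, also gave 2. Scaling by library totals moved the median log2 change of all genes in control 2iES cells against ICM from -0.05 to -0.44, and in control ICM against morula from 0.05 to 0.32. Counts of Fgf5, Sox3 and Zic2 were at most 14 in any library, which limits what could be tested for them.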
